A study of Mus musculus with 18 samples.

Results

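The genes described here are the canonical NF-kB subunits and the feedback inhibitors that hold them in check, in mouse pancreatic islets. The list named 10 genes: Nfkb1, Rela, Rel, Nfkbia, Nfkbib, Nfkbie, Bcl3, Tnfaip3, Tnip1 and Cyld. Members were taken from the array's annotation as probe sets with that single symbol, and 9 of the 10 had 1 probe set each among the 22180 genes measured. Nfkb1 was not analysed here. The rule goes by gene names and reads no measured value, but the list was chosen with earlier results of these data known.

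NF-kB subunits such as RelA and c-Rel are transcription factors that inhibitor proteins of the IkB family (Nfkbia, Nfkbib, Nfkbie) hold in the cytoplasm. Signals from cytokine receptors activate the IkB kinase complex, the inhibitors are degraded, and the freed subunits switch on target genes. Among those targets are several of their own inhibitors, including Nfkbia and Tnfaip3, so that the transcript level of an inhibitor commonly follows the activity of the pathway.

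TRAF3 knockout (KO) islets came from mice with floxed TRAF3 alleles that also carried RIP-Cre. In RIP-Cre the rat insulin promoter drives the recombinase, which directs deletion chiefly to beta cells. TRAF2 KO islets came from mice with floxed TRAF2 alleles and RIP-Cre. TRAF2 and TRAF3 are adaptor proteins that keep the NF-kB inducing kinase NIK at a low level, and the study used both deletions to activate NIK in beta cells. Control islets came from floxed littermates, and the labels do not say which gene was floxed or whether Cre was absent. All mice were C57BL/6, of both sexes and 16 weeks old. Each genotype was fed a high-fat diet (HFD), which drew 45% of its calories from fat, for 8 weeks from 8 weeks of age, or chow. The 6 groups had 3 arrays each, 18 in all. The labels do not state that each array is a separate animal, so the p-values measure the spread between these samples.

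The islet label was checked first. All 10 measured islet marker genes were well above the array medians of 4.80 to 4.96 on the log2 scale, with Ins2 between 11.0 and 12.1 and Gcg between 12.7 and 13.1. Means of the 11 measured acinar marker genes ran from 6.47 to 13.4, and those of 9 ductal genes from 5.06 to 11.2. The check therefore does not show islets free of exocrine tissue. The correlation between arrays of 1 group ranged from 0.960 to 0.993. Traf2 passed the test in none of the 12 comparisons, with a log2 fold change of 0.14 ± 0.15 (SE) in TRAF2 KO against control islets on chow and 0.17 ± 0.15 on HFD. The sources used here do not say whether its probes lie in the floxed part, so this checks no label. By the sex-linked transcripts, 2 of 3 HFD TRAF3 KO arrays, 2 of 3 HFD TRAF2 KO arrays and 3 of 3 HFD control arrays were from females, against 1 of 3 in each chow group. Islets are mixed tissue, in which fewer cells of a type and less RNA per cell cannot be told apart.

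Letters close to the start sites of these genes are shown because the NF-kB proteins bind a known consensus and several of the inhibitors are textbook NF-kB targets. The windows are those of RefSeq for the mouse build GRCm38.p6, 300 bases in all, from 250 bases before to 50 after a start site. All 9 measured members had one. Distances below are counted from that start site. For Rela, Bcl3, Tnip1 and Cyld it lay inside the gene rather than at its outermost base. A match to the NF-kB consensus of 10 letters, on either strand, was found in 7 of the 9 members (Rel, Nfkbia, Nfkbie, Bcl3, Tnfaip3, Tnip1 and Cyld), against 4.51% of the 32851 windows of all genes. The looser pattern GGGNNNNNCC, which every consensus match also fits on 1 of the strands, was found in 8 of 9 members and in 50.8% of all windows. The 5 windows printed below are read in the direction of the gene, with matches to the consensus in capitals. They are those of the inhibitor Nfkbia, the ubiquitin-editing enzyme Tnfaip3 and its partner Tnip1, which moved in the knockouts, of the subunit Rel, and of Cyld, which passed in no comparison.
Nfkbia (chr12:55492598-55492897, minus strand): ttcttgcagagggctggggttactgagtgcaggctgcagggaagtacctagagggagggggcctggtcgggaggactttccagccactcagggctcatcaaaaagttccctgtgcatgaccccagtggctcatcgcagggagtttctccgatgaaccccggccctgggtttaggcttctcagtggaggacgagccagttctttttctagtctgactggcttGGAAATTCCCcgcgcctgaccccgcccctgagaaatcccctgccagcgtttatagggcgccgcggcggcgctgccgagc
Tnfaip3 (chr10:19015361-19015660, minus strand): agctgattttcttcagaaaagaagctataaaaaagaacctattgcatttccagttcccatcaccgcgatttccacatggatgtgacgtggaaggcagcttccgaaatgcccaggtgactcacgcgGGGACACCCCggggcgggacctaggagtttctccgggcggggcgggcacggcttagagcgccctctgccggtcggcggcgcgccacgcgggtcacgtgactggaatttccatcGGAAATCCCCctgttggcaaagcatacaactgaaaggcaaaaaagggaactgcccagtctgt
Tnip1 (chr11:54962891-54963190, minus strand): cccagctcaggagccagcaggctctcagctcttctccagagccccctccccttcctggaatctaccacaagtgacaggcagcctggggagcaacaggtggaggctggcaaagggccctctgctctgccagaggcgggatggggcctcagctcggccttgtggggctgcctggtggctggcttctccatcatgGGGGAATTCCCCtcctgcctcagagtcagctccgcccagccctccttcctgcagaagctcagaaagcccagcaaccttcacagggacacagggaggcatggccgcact
Rel (chr11:23770920-23771219, minus strand): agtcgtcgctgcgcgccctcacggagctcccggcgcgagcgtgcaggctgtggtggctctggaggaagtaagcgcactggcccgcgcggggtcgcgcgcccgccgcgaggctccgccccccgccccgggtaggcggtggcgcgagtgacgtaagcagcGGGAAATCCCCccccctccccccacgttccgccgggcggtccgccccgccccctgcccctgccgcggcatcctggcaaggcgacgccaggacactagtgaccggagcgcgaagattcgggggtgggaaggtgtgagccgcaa
Cyld (chr8:88696778-88697077, plus strand): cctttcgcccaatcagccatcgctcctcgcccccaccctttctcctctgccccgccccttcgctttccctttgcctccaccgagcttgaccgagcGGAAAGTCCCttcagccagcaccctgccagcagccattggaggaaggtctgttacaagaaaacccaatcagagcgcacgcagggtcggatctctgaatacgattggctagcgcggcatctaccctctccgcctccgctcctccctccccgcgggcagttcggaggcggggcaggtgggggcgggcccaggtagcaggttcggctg
The Nfkbia match began 29 bases before the start, and those of Tnfaip3 began 125 and 12 bases before it. A second start of Tnfaip3 had no match. Tnip1 held 3 overlapping matches, of which the first began 58 bases before the start. In Rel 2 overlapping matches began 92 and 91 bases before the start, and in Cyld the match began 155 bases before it. Of the windows not printed, Nfkbie held GGGGGATTCC (106 bases before the start) and Bcl3 held GGGAAGTCCC (2 bases after it), while those of Rela and Nfkbib had no match to the consensus. A match describes these letters and does not show that a protein was bound in these islets.

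Values below are the authors' log2 values, 1 per array, on the scale of the array software RMA. A difference of 1 on this scale is a doubling, and levels are compared between groups for 1 gene at a time, never between genes. A log2 fold change is the first-named group minus the second, with limma's standard error (SE), and a gene passed when its p, adjusted over all 22180 genes, was under 0.05.

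Among the inhibitors, Nfkbia (IkB-alpha, probe set 17281219), which holds NF-kB dimers in the cytoplasm, was higher in TRAF3 KO islets on both diets. On HFD its values were 9.65, 9.50 and 8.81 in TRAF3 KO islets, 8.37, 8.56 and 8.49 in TRAF2 KO islets, and 8.15, 8.23 and 7.90 in control islets. On chow they were 9.69, 9.46 and 9.46 in TRAF3 KO islets, 9.21, 9.28 and 9.09 in TRAF2 KO islets, and 8.16, 8.68 and 8.64 in control islets. On each diet both knockouts lay wholly above the controls. Nfkbia rose 2.34-fold in TRAF3 KO against control islets on HFD (log2 fold change 1.23 ± 0.19, limma adjusted p = 0.00297) and 2.06-fold on chow (1.04 ± 0.19, adjusted p = 0.00377). In TRAF2 KO against control islets the differences were 0.38 ± 0.19 on HFD (limma adjusted p = 0.912) and 0.70 ± 0.19 on chow (adjusted p = 0.245), and neither passed.

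Tnip1 (probe set 17262855), which binds Tnfaip3 and ubiquitin chains and restrains signalling to NF-kB, had the smallest spread of the 9 genes between arrays of 1 group, a pooled SD of 0.16. On HFD it read 7.60, 7.50 and 7.49 in TRAF3 KO islets, 7.14, 7.17 and 7.04 in TRAF2 KO islets, and 6.65, 6.47 and 6.38 in control islets. On chow it read 8.08, 7.89 and 8.13 in TRAF3 KO islets, 7.93, 7.60 and 7.72 in TRAF2 KO islets, and 6.69, 7.10 and 7.23 in control islets. Every knockout array lay above every control array of its diet, and on HFD the TRAF3 KO arrays also lay above the TRAF2 KO arrays. The rise in TRAF3 KO against control islets was 2.05-fold on HFD (1.03 ± 0.14, limma adjusted p = 0.00118) and 2.04-fold on chow (1.03 ± 0.14, adjusted p = 0.000698). Tnip1 also rose 1.67-fold in TRAF2 KO against control islets on chow (0.74 ± 0.14, limma adjusted p = 0.0302), and the difference of 0.62 ± 0.14 on HFD did not pass (adjusted p = 0.0961). The call on chow was lost (limma adjusted p in brackets) without chow TRAF2 KO 1 (0.121) or 3 (0.118), chow control 1 (0.137) or 2 (0.0992), or HFD TRAF2 KO 3 (0.05002), and with only the 2 compared groups in the fit (0.711).

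Tnfaip3 (probe set 17239597), a ubiquitin-editing enzyme that shuts off signalling to the IkB kinase, had the second largest rise on HFD among the members. It read 8.28, 8.42 and 6.36 in HFD TRAF3 KO islets, 5.97, 6.33 and 6.27 in HFD TRAF2 KO islets, and 5.69, 6.03 and 5.43 in HFD control islets. On chow it read 7.85, 7.24 and 7.55 in TRAF3 KO islets, 7.52, 6.93 and 6.79 in TRAF2 KO islets, and 5.63, 6.40 and 6.10 in control islets. On HFD 1 TRAF3 KO array lay near the TRAF2 KO arrays and the other 2 lay well above it, while on chow both knockouts lay wholly above the controls. Tnfaip3 rose 3.91-fold in TRAF3 KO against control islets on HFD (1.97 ± 0.40, limma adjusted p = 0.0158) and 2.84-fold on chow (1.50 ± 0.40, adjusted p = 0.0257). In TRAF2 KO against control islets the differences of 0.47 ± 0.40 on HFD and 1.04 ± 0.40 on chow did not pass (limma adjusted p = 0.977 and 0.655).

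Cyld (probe set 17503681), a deubiquitinase that removes the chains on which the IkB kinase is activated, passed in no comparison. Its 18 values ranged from 6.99 to 7.93, the narrowest range of the 9 genes, and the knockout and control arrays overlapped on both diets. Its log2 fold change was -0.01 ± 0.18 in TRAF3 KO against control islets on HFD, with a 95% confidence interval of -0.39 to 0.38, and -0.27 ± 0.18 on chow (-0.66 to 0.11). In TRAF2 KO against control islets it was 0.23 ± 0.18 on HFD (-0.15 to 0.62) and -0.19 ± 0.18 on chow (-0.57 to 0.20).

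**Figure D1:**
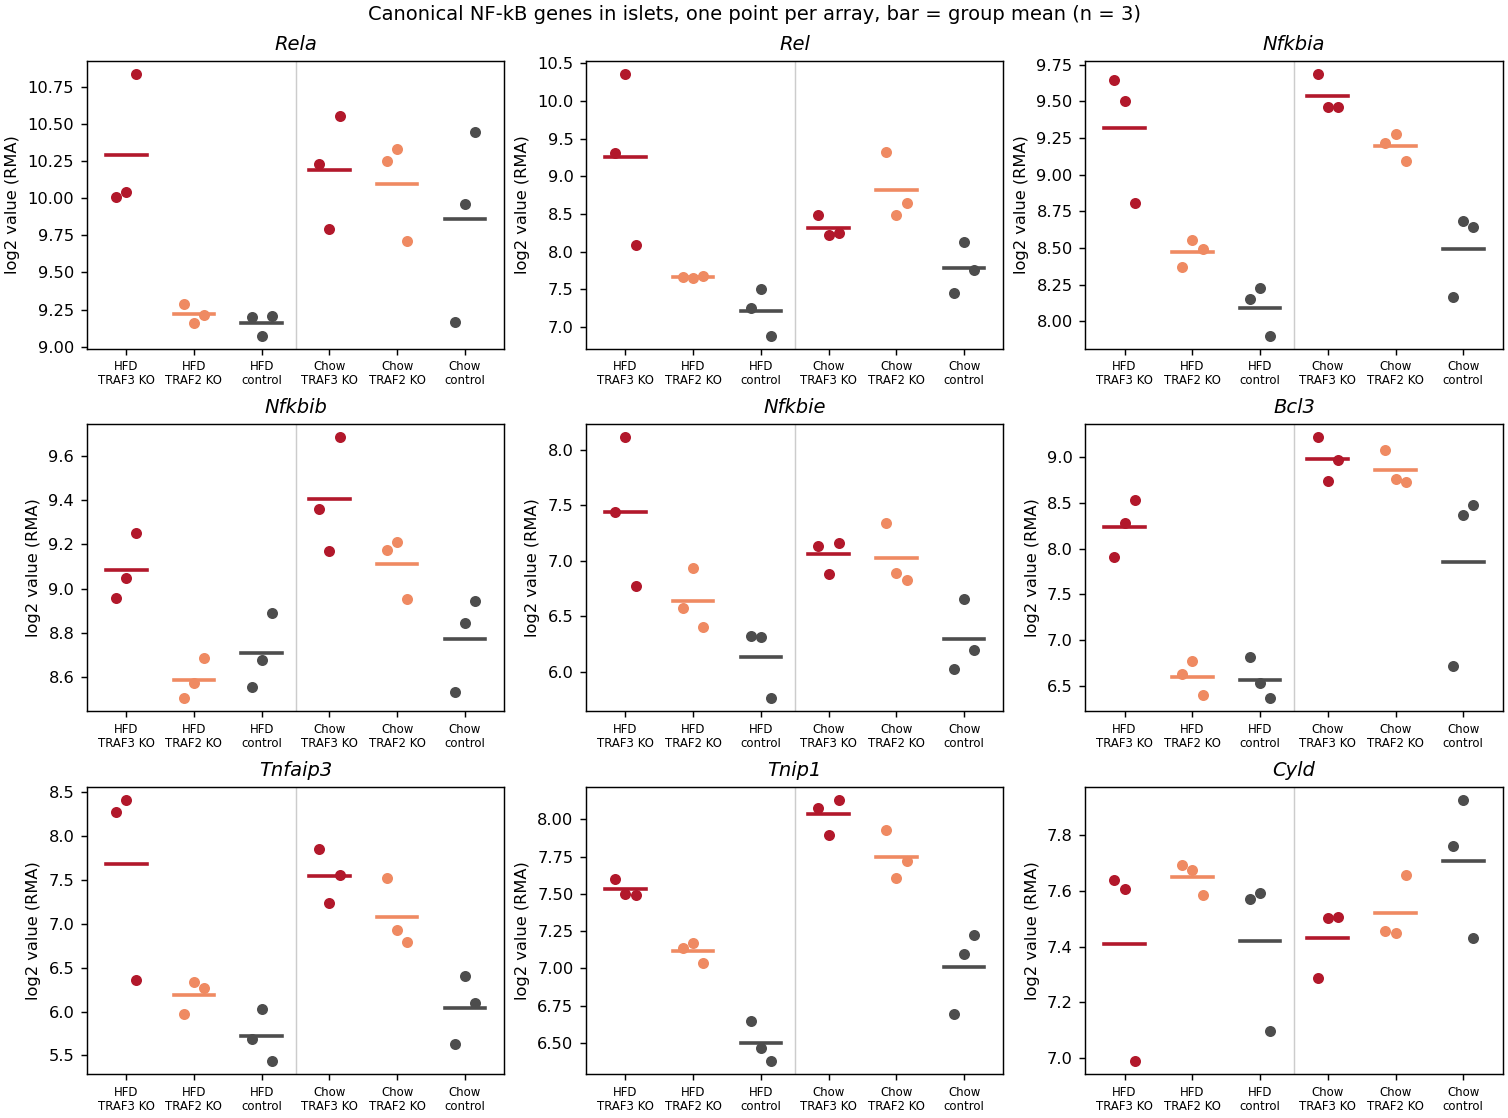
Log2 values (RMA) of the 9 measured genes, 1 point per array and a bar at the mean of 3 arrays, in TRAF3 KO, TRAF2 KO and control islets on HFD (left of the grey line) and on chow (right). Tnip1, Nfkbia, Rel and Nfkbie sit above the controls in all knockout arrays of the same diet. The 3 TRAF2 KO arrays of Bcl3 sit between 6.39 and 6.76 on HFD, against 8.73 to 9.08 on chow.

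Bcl3 (probe set 17487457), an IkB-like protein that works in the nucleus with NF-kB homodimers, had the largest difference between diets among the members. It read 7.90, 8.28 and 8.53 in HFD TRAF3 KO islets, 6.63, 6.76 and 6.39 in HFD TRAF2 KO islets, and 6.81, 6.53 and 6.36 in HFD control islets. On chow it read 9.22, 8.74 and 8.97 in TRAF3 KO islets, 9.08, 8.76 and 8.73 in TRAF2 KO islets, and 6.72, 8.36 and 8.48 in control islets. Chow control 1 lay far below the other 2 chow controls, which came close to the knockouts. By the sex-linked transcripts it was also the only chow control from a female. Bcl3 rose 3.19-fold in TRAF3 KO against control islets on HFD (1.67 ± 0.34, limma adjusted p = 0.0144) and 2.18-fold on chow (1.13 ± 0.34, adjusted p = 0.0423). Without chow control 1 the chow value was 0.56 and did not pass (limma adjusted p = 0.135). In TRAF2 KO against control islets the differences were 0.03 ± 0.34 on HFD and 1.00 ± 0.34 on chow (limma adjusted p = 0.997 and 0.474).

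Rel (c-Rel, probe set 17261107), a subunit best known from lymphoid cells, had the widest range of the members, 3.47 log2 units over the 18 arrays. It read 9.31, 10.36 and 8.09 in HFD TRAF3 KO islets, 7.66, 7.65 and 7.67 in HFD TRAF2 KO islets, and 7.26, 7.50 and 6.89 in HFD control islets. On chow it read 8.49, 8.23 and 8.25 in TRAF3 KO islets, 9.32, 8.48 and 8.65 in TRAF2 KO islets, and 7.46, 8.13 and 7.76 in control islets. The highest value of each knockout line, HFD TRAF3 KO 2 and chow TRAF2 KO 1, fell on the arrays with the highest lymphocyte marker scores, 2.06 and 2.14, where the other 16 arrays lay between -1.07 and 1.28. Rel rose 4.10-fold in TRAF3 KO against control islets on HFD (2.04 ± 0.39, limma adjusted p = 0.0110), and by 1.48 on the log2 scale without those 2 arrays, where the call held. It was lost without HFD control 3 (1.87, limma adjusted p = 0.0542). The other differences were 0.45 ± 0.39 in TRAF2 KO against control islets on HFD, 0.54 ± 0.39 in TRAF3 KO against control islets on chow, and 1.04 ± 0.39 in TRAF2 KO against control islets on chow, and none passed (limma adjusted p = 0.977, 0.462 and 0.620).

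Rela (probe set 17356490), which encodes the main activating subunit, was measured far above the array medians in all groups. On HFD it read 10.01, 10.04 and 10.84 in TRAF3 KO islets, 9.28, 9.16 and 9.21 in TRAF2 KO islets, and 9.20, 9.07 and 9.21 in control islets. On chow it ranged from 9.79 to 10.56 in TRAF3 KO islets, from 9.71 to 10.33 in TRAF2 KO islets and from 9.17 to 10.45 in control islets. The HFD TRAF3 KO arrays lay wholly above the HFD controls, with a difference of 1.13 ± 0.29 that narrowly missed the threshold (limma adjusted p = 0.0507), and the chow groups overlapped. With the ductal marker score as a covariate this difference was 0.70 and passed (limma adjusted p = 0.0149). In TRAF2 KO against control islets it was 0.06 ± 0.29 on HFD, with an interval of -0.56 to 0.67, and 0.24 ± 0.29 on chow (-0.38 to 0.86).

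Of the remaining IkB genes, Nfkbie passed on HFD and Nfkbib on chow, both in TRAF3 KO islets. Nfkbie (IkB-epsilon, probe set 17337927) read 7.44, 8.12 and 6.78 in HFD TRAF3 KO islets, 6.58, 6.94 and 6.41 in HFD TRAF2 KO islets, and 6.33, 6.32 and 5.76 in HFD control islets. It rose 2.48-fold in TRAF3 KO against control islets on HFD (1.31 ± 0.28, limma adjusted p = 0.0192). On chow it ranged from 6.88 to 7.16 in TRAF3 KO islets, from 6.83 to 7.34 in TRAF2 KO islets and from 6.02 to 6.66 in control islets, so the knockouts lay above the controls, but the differences of 0.76 ± 0.28 and 0.73 ± 0.28 did not pass (limma adjusted p = 0.0932 and 0.634). Nfkbib (IkB-beta, probe set 17488544) read 9.36, 9.17 and 9.69 in chow TRAF3 KO islets, 9.17, 9.21 and 8.95 in chow TRAF2 KO islets, and 8.53, 8.84 and 8.94 in chow control islets. It rose 1.55-fold in TRAF3 KO against control islets on chow (0.63 ± 0.15, limma adjusted p = 0.0147). On HFD it ranged from 8.96 to 9.25 in TRAF3 KO islets, from 8.50 to 8.69 in TRAF2 KO islets and from 8.55 to 8.89 in control islets, and neither knockout passed (0.38 ± 0.15, limma adjusted p = 0.234, and -0.12 ± 0.15, adjusted p = 0.977).

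Counted over the members, 6 of 9 rose and none fell in TRAF3 KO against control islets on HFD (Rel, Nfkbia, Nfkbie, Bcl3, Tnfaip3 and Tnip1), where 2.52% of all genes passed and 1.68% rose. In 8 of 9 the TRAF3 KO arrays lay wholly above the controls, against 8.61% of all genes. The median log2 fold change of the 9 genes was 1.23, against -0.02 over all genes. On chow 5 of 9 rose and none fell (Nfkbia, Nfkbib, Bcl3, Tnfaip3 and Tnip1), where 11% of all genes passed and 6.33% rose, and the medians were 0.76 and -0.01. On chow 7 of 9 did not overlap, against 15.9% of all genes. Nfkbia, Bcl3, Tnfaip3 and Tnip1 passed on both diets. On HFD single omissions took the calls (limma adjusted p in brackets) of Nfkbie and Tnfaip3 without HFD TRAF3 KO 1 (0.0586 and 0.0716), of Nfkbie, Bcl3 and Tnfaip3 without HFD TRAF3 KO 2 (0.0853, 0.0569 and 0.0801), and of Bcl3 without HFD control 2 (0.0503). Without HFD control 3, Rel, Nfkbie, Bcl3 and Tnfaip3 were lost (0.0542 to 0.0916), which left 2 members. On chow they took those of Bcl3 and Tnfaip3 without chow TRAF3 KO 1 (0.147 and 0.103), which left 3, and of Nfkbib, Bcl3 and Tnfaip3 without chow TRAF3 KO 3 (0.0942, 0.129 and 0.0921) or chow control 1 (0.0766, 0.135 and 0.117), which left 2. Bcl3 also lost its chow call under 8 other omissions, 7 of arrays outside the comparison (limma adjusted p up to 0.0564) and that of chow TRAF3 KO 2 (1.24, 0.0521). Nfkbia and Tnip1 passed on both diets under all 18 omissions. With only the 2 compared groups in the fit, 2 members passed on HFD (Bcl3 and Tnip1), and Nfkbia did not (limma adjusted p = 0.0935).

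For TRAF2 KO, set against control islets on chow, 1 of 9 members rose, Tnip1, where 0.298% of all genes passed and 0.28% rose. The members' median was 0.73, against -0.01 over all genes, and 7 of 9 had an unadjusted p under 0.05, against 6.44% of all genes. In 7 of the 9 the TRAF2 KO arrays lay wholly above the controls, against 4.68% of all genes. On HFD 0 of 9 passed, where 0.252% of all genes passed, and 1 (Tnip1) had an unadjusted limma p under 0.05, against 5.71% of all genes. Tnip1 passed on HFD when chow control 1 was left out (limma adjusted p = 0.0362). The HFD median was 0.38, against -0.003 over all genes, and 4 of 9 did not overlap (Rel, Nfkbia, Nfkbie and Tnip1), against 7.83% of all genes. The TRAF3 KO and TRAF2 KO comparisons within a diet share their 3 control arrays, so their values are given side by side only.

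Averaged over both knockouts and both diets, 6 of 9 members rose and none fell, where 2.8% of all genes passed and 1.84% rose. The rises were 1.81-fold for Tnip1 (0.85 ± 0.08, limma adjusted p = 6.4e-05), 1.79-fold for Nfkbia, 2.37-fold for Tnfaip3, 1.94-fold for Bcl3, 2.02-fold for Rel and 1.77-fold for Nfkbie. Rela, Nfkbib and Cyld did not pass (0.44 ± 0.18, 0.31 ± 0.09 and -0.06 ± 0.11). The calls of Tnip1, Nfkbia and Tnfaip3 held when any 1 of the 18 arrays was left out. Rel lost its call under 10 of these omissions, with an adjusted p of up to 0.105 without chow control 1, Nfkbie under 1 (0.0550, without chow control 1) and Bcl3 under 2 (without HFD control 2 or 3, up to 0.0519).

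**Figure D2:**
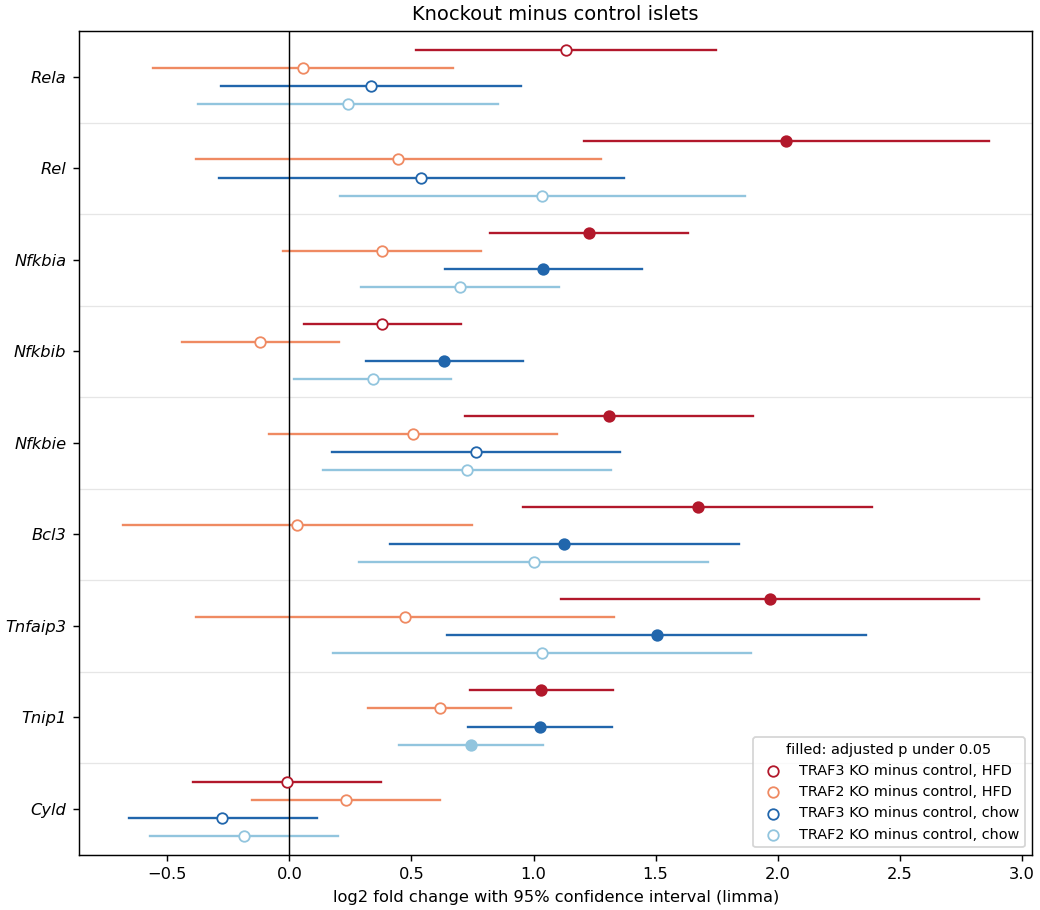
Log2 fold change of each gene, knockout minus control islets, with its 95% confidence interval from limma (x axis) in the 4 comparisons of a knockout with its diet-matched controls; a filled point marks an adjusted p under 0.05. The HFD TRAF3 KO points of Rel (2.04) and Tnfaip3 (1.97) lie farthest right, and the 4 Cyld intervals all include 0.

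The 2 knockout lines were then compared directly. On HFD 2 of 9 members were higher in TRAF3 KO than in TRAF2 KO islets, where 1.05% of all genes passed and 0.627% were higher. Bcl3 was 3.12-fold higher (1.64 ± 0.34, limma adjusted p = 0.0266) and Nfkbia 1.80-fold higher (0.85 ± 0.19, adjusted p = 0.0448). The values of both are given above, and the HFD TRAF3 KO arrays lay wholly above the HFD TRAF2 KO arrays for 7 of 9 members, against 8.26% of all genes. Nfkbia lost its call when any of 14 arrays was left out, including HFD TRAF3 KO 1 (0.148) and HFD TRAF2 KO 1 (0.175), and Bcl3 when any of 5 was, HFD TRAF3 KO 2 (0.0784) or 3 (0.0835) or any HFD TRAF2 KO array (up to 0.139). With the myeloid score the Bcl3 difference was 1.86 and did not pass (limma adjusted p = 0.0666). That score did not overlap between the knockouts on HFD, so this fit cannot tell cell makeup and genotype apart. Without HFD TRAF3 KO 3, the array lowest in Rel, Nfkbie and Tnfaip3 of its group, the differences of those genes were 2.17, 1.14 and 2.16 and passed (limma adjusted p = 0.0014, 0.0431 and 0.000521), where with all arrays they were 1.59, 0.80 and 1.49 and did not. Leaving out the lowest array of the higher group had to raise these differences, so the passes add no support.

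On chow 0 of 9 members differed between TRAF3 KO and TRAF2 KO islets at an adjusted p under 0.05 in limma, where 2.01% of all genes passed, and 0 of 9 had an unadjusted p under 0.05, against 16.2% of all genes. The differences ran from -0.50 ± 0.39 for Rel to 0.47 ± 0.40 for Tnfaip3. The intervals were wide, -1.32 to 0.33 for Rel and -0.39 to 1.32 for Tnfaip3, and extended past a 2-fold difference. For Tnip1 the interval was narrower, -0.01 to 0.58.

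Diet was compared within each genotype, HFD minus chow. In TRAF2 KO islets 2 of 9 members fell, where 1.96% of all genes passed and 1.08% fell. Bcl3 was 4.79-fold lower on HFD than on chow (-2.26 ± 0.34, limma adjusted p = 0.00267), and Tnip1 was 1.55-fold lower (-0.64 ± 0.14, adjusted p = 0.0268). In 7 of 9 members the HFD TRAF2 KO arrays lay wholly below the chow TRAF2 KO arrays, against 12.2% of all genes, and the members' median difference was -0.72, against 0.01 over all genes. The Bcl3 call held under every omission and alternative tried, with values between -2.52 and -2.03. Tnip1 lost its call (limma adjusted p up to 0.131) without any 1 of the 3 HFD arrays or without chow TRAF2 KO 1 or 3. With the myeloid score described below as a covariate 6 of 9 members passed here and 5 in control islets. Over all genes that fit called 1275 and 1776, against 435 and 196 without the score. In both genotypes the score did not overlap between diets, so this fit cannot tell cell makeup and diet apart there. In TRAF2 KO islets 5 of 14 myeloid marker genes were higher on HFD (Adgre1, Csf1r, Tyrobp, Cd163 and Mrc1), with a median of 0.83 over the 14, and 1 of 9 ductal genes (Krt8) was lower. Of all genes 1.96% passed there in either direction and 1.08% fell.

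In TRAF3 KO islets 1 of 9 members, Tnip1, was lower on HFD than on chow (-0.50 ± 0.14, limma adjusted p = 0.0343), where 8.67% of all genes passed and 6.01% fell. The members' median was -0.02, and 2 of 9 lay wholly below (Bcl3 and Tnip1), against 14.8% of all genes. Rel was 1.91-fold higher on HFD (0.93 ± 0.39), but did not pass (limma adjusted p = 0.165). Without HFD TRAF3 KO 3 the Rel difference was 1.51 and passed (adjusted p = 0.00644). This array was the lowest of its group in Rel, so its omission had to raise the difference. Tnip1 lost its call (adjusted p up to 0.150) without any 1 of the 3 HFD arrays or without chow TRAF3 KO 1 or 3. It also lost it with the ductal score (-0.35, limma adjusted p = 0.156), where Rela passed instead (0.67, 0.0281), with the sex score (0.0538) and with only the 2 compared groups in the fit (0.0893). In the same comparison 6 of 10 islet marker genes were higher on HFD, and 1 of 14 myeloid (Cd68) and 1 of 9 ductal genes (Anxa3) were lower. The shares of all genes were 8.67% in either direction and 6.01% lower.

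In control islets 0 of 9 members passed in limma, where 0.884% of all genes did, and 3 had an unadjusted p under 0.05 (Rela, Bcl3 and Tnip1), against 15.9% of all genes. The 3 differences were -0.70 ± 0.29, -1.29 ± 0.34 and -0.51 ± 0.14 (limma adjusted p = 0.254, 0.0796 and 0.0911). Tnip1 alone had HFD control arrays wholly below the chow controls, against 9.42% of all genes. Without chow control 1, Bcl3 differed by -1.86 and Tnip1 by -0.66, and both passed (limma adjusted p = 0.000346 and 0.0155). Chow control 1 was the lowest chow control in both genes, so its omission had to widen the differences. It was also the only chow control from a female, so without it diet and sex cannot be told apart in control islets. All 3 HFD control arrays were from females and 2 of the 3 chow controls were from males, and with the sex score as a covariate 0 of 9 passed as well. In control islets 7 of 14 myeloid marker genes were higher on HFD, with a median of 1.51, against 0.884% of all genes that passed in either direction. There 0 of 9 ductal and 0 of 10 islet marker genes passed in limma.

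**Figure D3:**
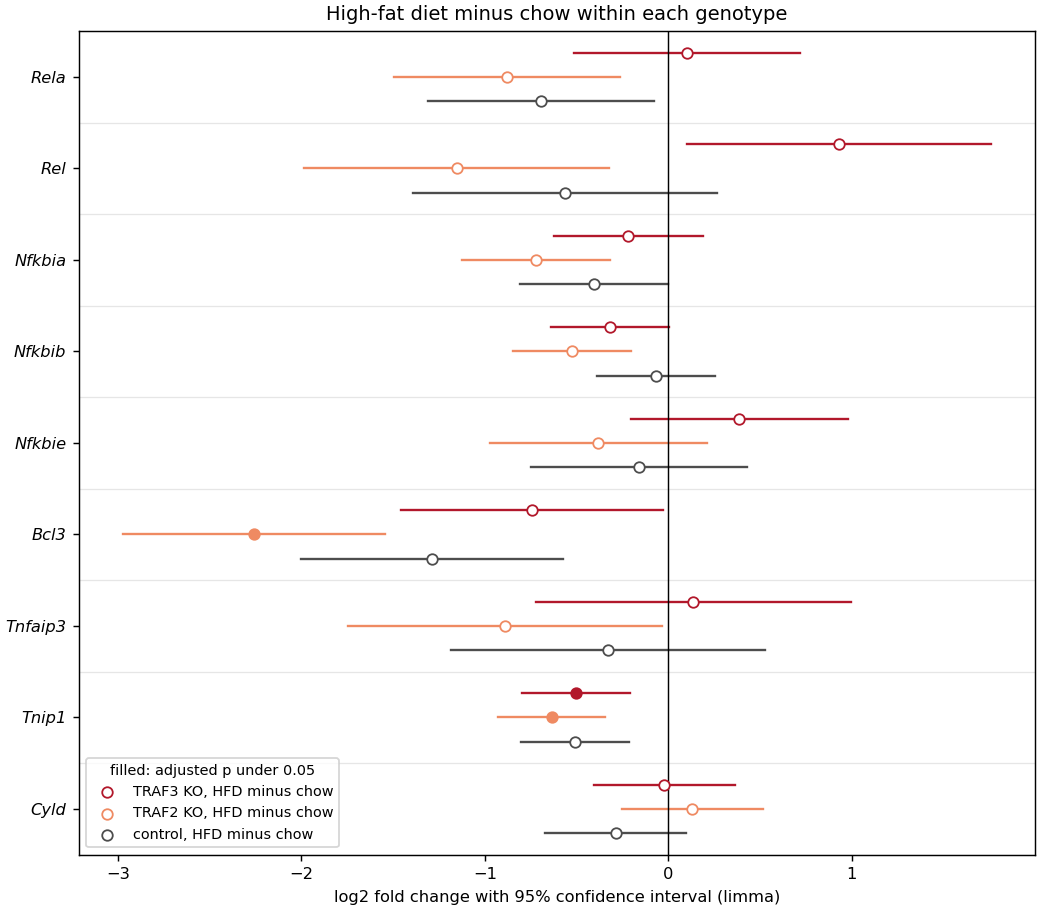
Log2 fold change of each gene, HFD minus chow, with its 95% confidence interval from limma (x axis) in TRAF3 KO, TRAF2 KO and control islets; a filled point marks an adjusted p under 0.05. Bcl3 in TRAF2 KO islets (-2.26) lies farthest left, and Rel in TRAF3 KO islets (0.93) lies on the other side of 0 from Rel in TRAF2 KO (-1.15) and control islets (-0.56).

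Whether the knockout effect itself depended on diet was tested as an interaction, the knockout minus control difference on HFD minus that on chow. For TRAF3 KO 0 of 9 members passed in limma, where 5.8% of all genes did, and 1, Rel, had an unadjusted p under 0.05 (1.50 ± 0.55, adjusted p = 0.125), against 21.3% of all genes. Without HFD TRAF3 KO 3 the Rel interaction was 2.08 and passed (adjusted p = 0.00845), and without chow control 1 that of Bcl3 was 1.12 and passed (0.0321), against 0.55 with all arrays. Each omitted array was the lowest of its group for that gene, so its omission had to raise the value. Chow control 1 was also the only chow control from a female. For Tnip1 the interaction was 0.01 ± 0.20, with an interval of -0.41 to 0.42. For TRAF2 KO 0 of 9 members and 0 of all 22180 genes passed in limma. Of all genes, 628 (2.83%) had an unadjusted p under 0.05 there, and of the members 1 did, Nfkbib (-0.46 ± 0.21). The Bcl3 interaction was -0.97 ± 0.48.

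Ordered by their means over the 6 groups, the members differed in which group stood at the top. Nfkbia, Nfkbib, Bcl3 and Tnip1 were highest in chow TRAF3 KO islets, Rela, Rel, Nfkbie and Tnfaip3 in HFD TRAF3 KO islets, and Cyld in chow control islets. HFD control islets stood lowest for 7 members (Rela, Rel, Nfkbia, Nfkbie, Bcl3, Tnfaip3 and Tnip1), HFD TRAF2 KO islets for Nfkbib, and HFD TRAF3 KO islets for Cyld. No neighbouring pair in any of the 9 orders differed at an adjusted p under 0.05 in limma. The largest neighbouring steps were 1.26 ± 0.34 between HFD TRAF2 KO islets and the higher chow control islets for Bcl3 (adjusted p = 0.0745) and 0.89 ± 0.40 between HFD TRAF2 KO islets and the higher chow TRAF2 KO islets for Tnfaip3 (adjusted p = 0.323).

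Other genes of the pathway were followed in 3 lists, and the same probe sets and test were used. Of 25 established NF-kB targets outside the members, 24 were measured. In TRAF3 KO against control islets on HFD their median log2 fold change was 0.93, against -0.02 over all genes. There 1.68% of all genes rose, and of the 24 targets 7 rose and none fell. They included Ier3, an early response gene (4.28-fold), Junb, an AP-1 subunit (4.10-fold), and Gadd45b, a stress sensor (3.81-fold). The cytokine Il6 also passed (limma adjusted p = 0.0193), at 5.30 to 7.18 in TRAF3 KO islets and 3.04 to 3.18 in control islets. These control values lay below the array medians, no detection call was used here, and no fold against control islets is given for Il6. On chow, where 6.33% of all genes rose, 18 of 24 rose and none fell, with a median of 1.07. Among them were the chemokines Ccl2 (15.1-fold) and Ccl5 (13.9-fold) and Ptgs2, the inducible cyclooxygenase (12.5-fold, with 1 chow control array at 4.28, below the array medians). Il6 passed as well (limma adjusted p = 0.0015), at 7.93 to 9.52 in chow TRAF3 KO islets and 2.97 to 5.63 in chow control islets. The HFD count was 11 without chow control 1, 10 when the myeloid score and 6 when the ductal score entered the fit, and 4 without the 2 lymphocyte-rich arrays. In the same 4 fits the chow count was 10, 7, 4 and 19.

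Of the 24 targets 0 passed in limma in TRAF2 KO against control islets on either diet. An unadjusted p under 0.05 was found for 3 on HFD and 10 on chow, against 5.71% and 6.44% of all genes. The medians were 0.17 on HFD and 0.67 on chow. Icam1, an adhesion molecule, differed by 0.35 ± 0.37 on HFD and 0.69 ± 0.37 on chow, and Vcam1, another, by 0.50 ± 0.46 and 0.83 ± 0.46. Averaged over knockouts and diets, where 1.84% of all genes rose, 10 of 24 targets rose and none fell. Among them were Il6, Ptgs2 (3.88-fold), Ier3 (3.09-fold) and Cxcl10, an interferon-inducible chemokine (4.61-fold, with HFD control values of 4.73 to 5.02 close to the array medians). With the ductal score in the fit 6 rose. On HFD against chow 9 of 24 fell and none rose in TRAF3 KO islets (median -0.86), where 6.01% of all genes fell. In TRAF2 KO islets 4 fell and none rose (median -0.63), where 1.08% of all genes fell. In control islets 0 passed, and 7 had an unadjusted limma p under 0.05, against 15.9% of all genes. The 9 included Ccl2 (-3.14 ± 0.49), Lcn2, an iron-binding secreted protein (-2.83 ± 0.70), Ccl5 (-2.76 ± 0.67) and Il6 (-2.74 ± 0.66). The 4 were Ier3, Junb, Gadd45b and Il6, which read 2.94 to 3.56 on HFD, below the array medians, against 5.83 to 7.65 on chow. These counts depended on the fit, and without chow control 1 the chow controls left were all from males. In control islets 5 targets fell without chow control 1, 2 without HFD TRAF3 KO 3, 7 without both, 5 with the myeloid score and 3 with the ductal score. The ductal score gave 4 in TRAF3 KO islets, and the myeloid score gave 9 in TRAF2 KO islets. The myeloid score did not overlap between diets in TRAF2 KO or control islets. Whether the diet counts differed between genotypes was not tested.

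Of 22 adaptors, ubiquitin ligases and kinases upstream, 19 were measured. On HFD, where 1.68% of all genes rose, 2 of the 19 rose in TRAF3 KO against control islets and none fell. They were Birc3, a ubiquitin ligase recruited by TRAF2 (1.72-fold), and Bcl10, an adaptor of antigen receptor signalling (1.67-fold). The HFD count was 1 without HFD TRAF3 KO 3 or with the ductal score, 0 without the 2 lymphocyte-rich arrays and 5 with the myeloid score. On chow 5 rose and 2 fell, where 6.33% of all genes rose and 4.69% fell. Birc3 (3.09-fold), the receptor adaptor Myd88 (1.93-fold), Bcl10 (1.91-fold), Ikbkg, the regulatory subunit of the IkB kinase (1.65-fold), and Rnf31 rose. The kinase partners Tab1 (-0.70 ± 0.11) and Tab2 (-0.38 ± 0.10) fell. With the ductal score 3 rose and 1 fell, with the myeloid score 4 rose and 4 fell, and without chow control 1 there were 4 that rose and 1 that fell. Birc3 alone rose in TRAF2 KO against control islets on chow (1.99-fold, limma adjusted p = 0.0375), where 0.28% of all genes rose. No upstream gene passed there in limma without chow control 1, without the 2 lymphocyte-rich arrays or with the myeloid score, and on HFD 0 passed, with 0 at an unadjusted limma p under 0.05. The list's median ran from 0.11 to 0.24 over these 4 comparisons.

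Of 18 further IkB-like proteins and brakes, 16 were measured. Nfkbiz, a nuclear IkB-like protein, rose 3.13-fold in TRAF3 KO against control islets on HFD, where 1.68% of all genes rose. On chow, where 6.33% of all genes rose, 4 of 16 did. They were Usp18, an interferon-inducible protease (4.59-fold), Tnip3, a relative of Tnip1 (3.17-fold), the RNase Zc3h12a (2.72-fold) and Rnf11 (1.43-fold). None fell. The chow count was 2 without chow control 1 and 1 with the ductal score, and the HFD count was 4 with the myeloid score and 2 without HFD TRAF3 KO 3 or without the 2 lymphocyte-rich arrays. Of these 16, 0 passed in limma in TRAF2 KO against control islets on either diet. An unadjusted p under 0.05 was found for 2 on each diet, against 5.71% of all genes on HFD and 6.44% on chow. Nfkbid, another nuclear IkB-like protein, differed by 0.27 ± 0.26 on HFD and 0.43 ± 0.26 on chow, and Nfkbiz by 0.18 ± 0.30 and 0.46 ± 0.30.

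**Figure D4:**
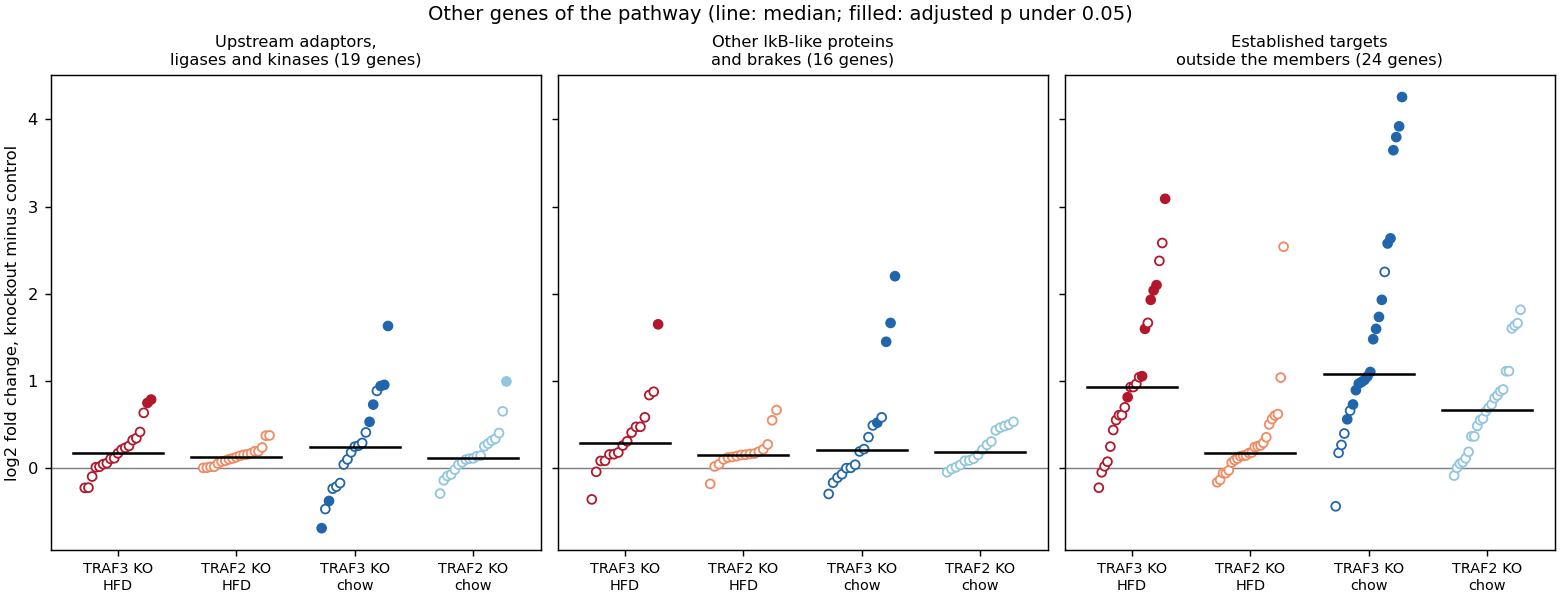
Log2 fold change, knockout minus control islets (y axis), of each measured gene of the 3 lists of other pathway genes in the 4 comparisons, with a line at the list's median and filled points for an adjusted p under 0.05 (limma). The targets hold the largest rises. The highest point is Il6 in TRAF3 KO islets on chow, whose size is uncertain because Il6 was low in the control arrays (2.97 to 5.63). No TRAF2 KO point of the targets is filled.

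The members fell into different patterns within groups. Each array's deviation from its group mean was compared between genes over the 18 arrays, as a description, since arrays share their groups and their cell makeup. Single groups held much of the spread, so a few arrays can carry an r. The SD of Rel and Tnfaip3 was 1.14 and 1.15 in HFD TRAF3 KO islets, against pooled values of 0.54 and 0.55. That of Bcl3 was 0.99 in chow control islets, against a pooled 0.46. Rel, Nfkbie and Tnfaip3 deviated together (Pearson r = 0.91 for Rel with Nfkbie, 0.91 for Rel with Tnfaip3 and 0.85 for Nfkbie with Tnfaip3), and Nfkbia went with Tnfaip3 (0.90). Rela went with Nfkbib (0.83) and Bcl3 (0.75), and Bcl3 with Tnip1 (0.81), while Rela and Rel gave -0.26. The marker scores were compared with the members in the same way, where a score is the mean deviation of a cell type's marker genes on the log2 scale. For the score of 14 macrophage and myeloid genes, the within-group r was 0.83 with Rel, 0.81 with Nfkbie and 0.80 with Tnfaip3. For the score of 9 ductal genes it was 0.92 with Rela, 0.78 with Nfkbib and 0.72 with Bcl3. Other scores gave values of like size: for endothelial genes 0.74 with Rel, 0.75 with Nfkbie and 0.79 with Cyld, for lymphocyte genes 0.70 with Rel, for stellate and fibroblast genes 0.76 with Tnfaip3, for acinar genes 0.75 with Rela, and for islet endocrine genes -0.71 with Rela and -0.75 with Nfkbib.

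These scores also moved with the groups. The ductal score ranged from -0.55 to 0.62 in HFD TRAF3 KO, -0.31 to -0.24 in HFD TRAF2 KO and -0.72 to -0.35 in HFD control islets, and from 0.51 to 1.23 in chow TRAF3 KO, -0.50 to 0.38 in chow TRAF2 KO and -1.16 to 0.46 in chow control islets. Of the 9 ductal genes 1 (Krt8) passed as higher in TRAF3 KO against control islets on HFD and 1 (Anxa3) on chow. The shares of all genes were 1.68% and 6.33%. No ductal gene was below the array medians throughout, and 0 passed in TRAF2 KO against control islets on either diet. The myeloid score ranged from -0.75 to 0.20 in HFD TRAF3 KO, 0.75 to 0.82 in HFD TRAF2 KO and 0.15 to 0.91 in HFD control islets, and from -0.19 to 0.03 in chow TRAF3 KO, -0.67 to 0.31 in chow TRAF2 KO and -0.89 to -0.71 in chow control islets. In TRAF3 KO against control islets 3 of 14 myeloid genes were lower on HFD (Adgre1, Cd163, Mrc1), where 0.848% of all genes were. On chow 3 were higher (Cd68, Cd14, Fcer1g), where 6.33% of all genes were. S100a8 was below the array median on all arrays.

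When the ductal score entered the fit, TRAF3 KO against control islets on chow gave 0.36 for Nfkbib and 0.48 for Bcl3, which did not pass (limma adjusted p = 0.178 and 0.440), and 1.62 for Tnfaip3 (0.0919). With the myeloid score Tnfaip3 gave 0.62 (limma adjusted p = 0.231) and Bcl3 0.96 (0.164). Nfkbia and Tnip1 passed on both diets with either score, with values of at least 0.73 for Nfkbia and 0.84 for Tnip1 over all alternatives on chow. Neither score overlapped between chow TRAF3 KO and chow control islets, so these fits cannot tell cell makeup and genotype apart there. The part of these cell types in the results was not tested. The 10 islet marker genes moved as well. In TRAF3 KO against control islets 6 of 10 fell on chow (Ins2, Slc2a2, Mafa, Pdx1, Nkx6-1, Slc30a8), with a median of -1.04, where 4.69% of all genes fell. On HFD 0 of 10 passed, with a median of -0.04.

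**Figure D5:**
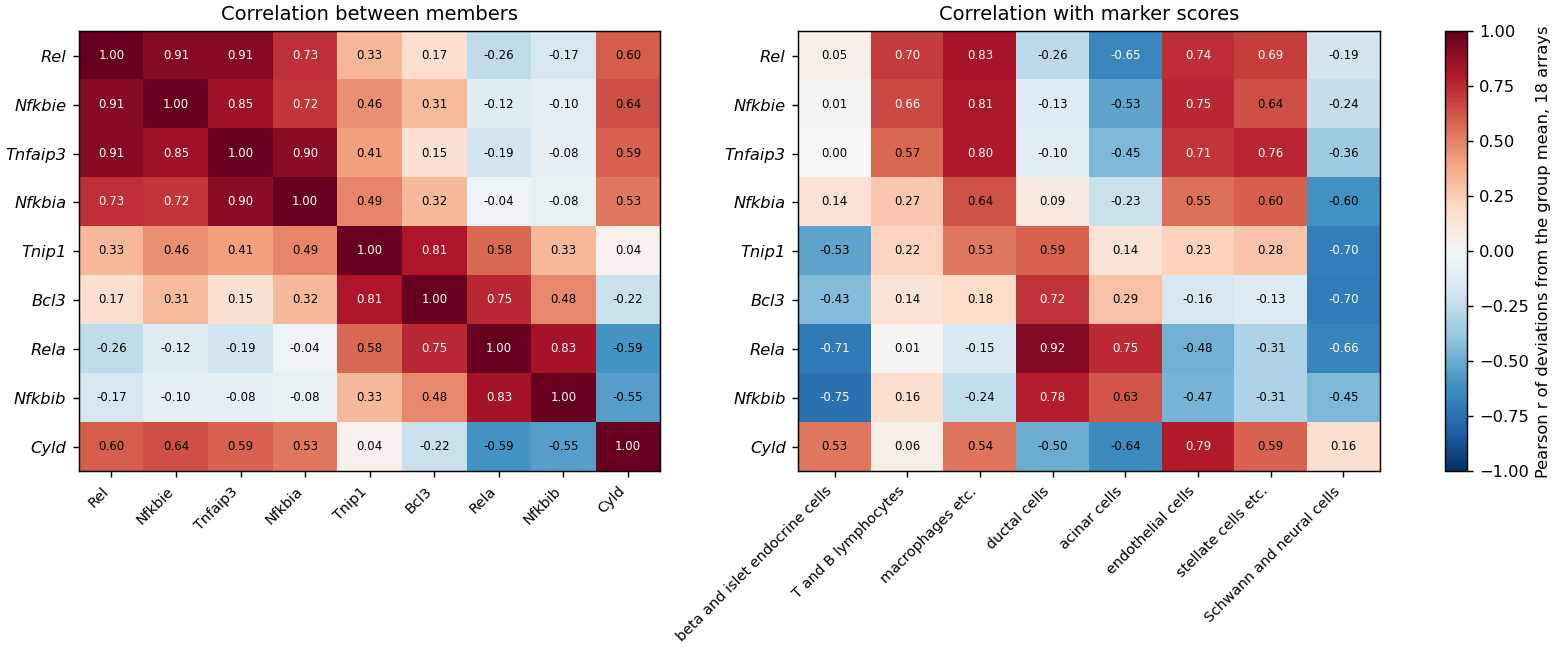
Pearson correlation, over 18 arrays, of deviations from the group mean between the 9 genes (left) and between the genes and the marker scores of 8 cell classes (right), from -1 (blue) to 1 (red). Rel, Nfkbie, Tnfaip3 and Nfkbia correlate with each other at 0.72 to 0.91, Rela with Nfkbib at 0.83 and with Bcl3 at 0.75, and Nfkbib with Bcl3 at 0.48. Several scores, among them myeloid and endothelial for Rel and ductal and acinar for Rela, reach 0.70 or more.

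For each member the 3 genes of most similar level over all 18 arrays were found by Pearson correlation of log2 values, which includes the differences between groups. Bcl3 was closest to Stc1 (r = 0.98), Pmepa1 and Elf3, and Tnip1 to Nfkb2 (0.96), Slc6a8 and Dusp16. Nfkbia was closest to Tnfaip3 (0.95), Nfkb2 and Adamts1, and Tnfaip3 to Nfkbia, Junb (0.93) and Nfkbie. Rel was closest to Nr4a3 (0.94), Nfkbie and Irs2, and Nfkbie to Rel (0.93), Tnfaip3 and Pim1. The nearest genes were Lrrc8b (0.96), Zyx and Taf4b for Rela, Tuba1c (0.95), Socs1 and Sc5d for Nfkbib, and Cnep1r1 (0.92), Hhat and Pigv for Cyld. Nfkb2, which encodes the precursor of the non-canonical subunit, was the only gene outside the list that stood among these 3 for more than 1 member, Nfkbia and Tnip1.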

How the data were processed

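Total RNA of isolated islets (250 ng) was labelled with biotin and hybridised to single-colour whole-transcript arrays. The authors deposited 1 log2 value per probe set and array. Per the submitters' processing notes, RMA (background correction, quantile normalization, summary per probe set) and limma were used, with versions and genome build not given in the sources used here. The sources do not say if the 18 arrays went through RMA as 1 set.

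Of 41345 probe sets, 23521 had 1 symbol in the platform annotation, 1814 several and 16010 none. Where several probe sets shared a symbol (1082 genes), the one of highest mean was kept, giving 22180 genes in all. The transcript deleted in the TRAF3 line is not reported here. Genes were tested with limma 3.58.1 in R 4.3.3 (lmFit and eBayes) in 1 fit of 6 group means with 12 residual degrees of freedom, for 12 contrasts. Two-sided p-values were adjusted over all 22180 genes (Benjamini-Hochberg), and the fit was tested on simulated data. No filter on signal was applied. For arrays the number of samples limits the precision.

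The members, the pathway and marker lists and the tests were chosen with earlier results of these data known. Named genes were all members, and from each list up to 4 that passed with the largest change in a comparison (or its first 2 measured genes); a count of 5 or fewer is named in full. Genes of like pattern leave out placeholder, olfactory, immunoglobulin and small RNA symbols. Alternatives were median centring, the trend and robust options of eBayes, a filter on dim genes, only the groups compared, the replicate number as a block, sex, lymphocyte, myeloid or ductal scores as covariates, the second probe set of a gene, and each array left out. A pair of further fits was chosen after seeing the data, without chow TRAF2 KO 1 and HFD TRAF3 KO 2 (the arrays richest in lymphocyte markers), and without chow control 1 and HFD TRAF3 KO 3.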

Additional observations from a re-analysis of the deposited data

Results flagged for a closer look

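Bcl3 and Nfkbia stood out because the test of the difference between the 2 knockout lines on HFD passed for them and for none of the other 7 members. Bcl3 was higher in TRAF3 KO than in TRAF2 KO islets by 1.64 ± 0.34 on the log2 scale (limma adjusted p = 0.0266), with 3 of 3 TRAF3 KO arrays above all TRAF2 KO arrays. Nfkbia was higher by 0.85 ± 0.19 (limma adjusted p = 0.0448), also with 3 of 3 arrays above. Both calls depended on the fit. Bcl3 lost its call under 5 of the 18 single-array omissions, without the 2 lymphocyte-rich arrays (limma adjusted p = 0.055) and with the myeloid score (1.86, 0.0666). The myeloid score did not overlap between the knockouts on HFD. Nfkbia lost its call under 14 of the 18 omissions, without the 2 lymphocyte-rich arrays (0.118) and with only the compared groups in the fit (0.225). The Bcl3 difference ranged from 1.42 to 1.86 and the Nfkbia difference from 0.68 to 1.26 over all of these fits.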

How the results depend on the processing

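Of the 108 member results in the 12 comparisons 23 passed, none changed sign when called, 8 kept their call when any single array was left out, and 7 also kept it under all other alternatives: Nfkbia and Tnip1 in TRAF3 KO against control islets on chow, Tnip1 in the same comparison on HFD, Nfkbia, Tnfaip3 and Tnip1 in both knockouts over both diets, and Bcl3 in HFD against chow TRAF2 KO islets. The counts of members that passed in limma moved by over 1.5 times as follows. With only the compared groups in the fit they were 2 in TRAF3 KO against control islets on HFD, 0 in TRAF2 KO against control islets on chow, 0 in HFD against chow TRAF3 KO islets and 1 in TRAF3 KO against TRAF2 KO islets on HFD. With the myeloid score they were 3 and 0 in TRAF3 KO and TRAF2 KO against control islets on chow, 2, 6 and 5 in HFD against chow TRAF3 KO, TRAF2 KO and control islets, 3 in the TRAF3 KO interaction and 4 in TRAF3 KO against TRAF2 KO islets on HFD. With the ductal score they were 2 in TRAF3 KO against control islets on chow, 1 in HFD against chow control islets, 1 in the TRAF3 KO interaction and 4 in TRAF3 KO against TRAF2 KO islets on HFD. With the lymphocyte score they were 0 in TRAF2 KO against control islets on chow, 1 in the TRAF3 KO interaction and 4 in TRAF3 KO against TRAF2 KO islets on HFD. The sex score gave 0 in HFD against chow TRAF3 KO islets, and centring each array gave 2 in HFD against chow control islets. Without the 2 lymphocyte-rich arrays there were 0 in TRAF2 KO against control islets on chow, 0 and 1 in HFD against chow TRAF3 KO and TRAF2 KO islets, and 0 in TRAF3 KO against TRAF2 KO islets on HFD. Without chow control 1 and HFD TRAF3 KO 3 there were 3 and 0 in TRAF3 KO and TRAF2 KO against control islets on chow, 1 in TRAF2 KO against control islets on HFD, 4, 7 and 4 in HFD against chow TRAF3 KO, TRAF2 KO and control islets, 3 in the TRAF3 KO interaction, and 5 in TRAF3 KO against TRAF2 KO islets on HFD. Leaving out 1 array at a time gave 2 to 6 in TRAF3 KO against control islets on chow, 0 to 2 in TRAF2 KO against control islets on chow, 2 to 7 in TRAF3 KO against control islets on HFD, 0 to 1 in TRAF2 KO against control islets on HFD, 0 to 2, 1 to 4 and 0 to 2 in HFD against chow TRAF3 KO, TRAF2 KO and control islets, 0 to 1 in the TRAF3 KO interaction and 0 to 4 in TRAF3 KO against TRAF2 KO islets on HFD. An equal count can hold other genes: with the ductal score Rela passed in place of Tnip1 in HFD against chow TRAF3 KO islets. The myeloid score did not overlap between chow control islets and either chow knockout, or between the knockouts on HFD. Nor did it overlap between diets in TRAF2 KO or control islets. Fits with it cannot tell cell makeup from genotype or diet there. The causes of these shifts were not tested. Deviations of same-numbered arrays correlated with a median of 0.03 over 45 pairs (-0.55 to 0.53), against -0.03 over 90 pairs of unlike number. Of 18 arrays, 6 correlated best with their own number. By the sex-linked transcripts, replicate 1 was female and replicates 2 and 3 were male in each chow group. In both HFD knockout groups the reverse held. These pairs mix the diets, so they do not settle whether replicate numbers pair the samples. With the replicate block the members that passed numbered 0 in TRAF2 KO and 4 in TRAF3 KO against control islets on chow. Over all genes, the number called in TRAF3 KO against control islets on chow was 2445, and 668 with the ductal score. The all-gene number moved in other comparisons too. With the myeloid score it went from 435 to 1275 in HFD against chow TRAF2 KO islets and from 196 to 1776 in control islets. In the TRAF3 KO interaction it went from 1287 to 711. With only the compared groups it went from 560 to 144 in TRAF3 KO against control islets on HFD. With 3 arrays a group, small differences could not be told from array spread.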
